A study of Mus musculus with 24 samples.

Results

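Expression of 36 genes of DNA replication and S phase was followed in CD45+ cells from mouse mammary tumors. The members are a fixed list of gene symbols, and all 36 were found among the 16996 genes measured. Each symbol matched 1 gene. The list holds genes of 1 function, and it was chosen with earlier results of these data known.

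The cells came from tumors of EMT6-hHER2, a murine breast cancer line that carries human HER2 on a transposed cassette and is 1 clone isolated by single-cell sorting. Wild-type female Balb/c mice 10 to 12 weeks old received these cells in the mammary fat pad. Tumors of 80 mm3 were left untreated or were treated intravenously with a single dose, which was 20 mg/kg for trastuzumab, 15 mg/kg for T-DM1 and 1 mg/kg for T-PNU, with 6 mice in each of the 4 groups. Trastuzumab is an antibody to HER2, T-DM1 is trastuzumab linked to a microtubule poison, and T-PNU is trastuzumab linked to an anthracycline. Tumors were taken 10 days after dosing, CD45+ cells were enriched with magnetic beads, and 1 library was sequenced per mouse. By the study's methods, tumors of the T-PNU cohort were then smaller than at dosing. In its growth experiments trastuzumab and T-DM1 did not prevent tumor growth. Tumor size at harvest and an effect of T-PNU on the cells therefore cannot be told apart. The samples include no vehicle control and no group given free payload. In the column headings the untreated mice carry numbers from a separate run of mouse numbers, so that a difference between the cohorts and an effect of treatment cannot be told apart.

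Before a cell copies its DNA, the origin recognition complex, Cdc6 and Cdt1 load a ring of Mcm2 to Mcm7 onto replication origins. In S phase this helicase is activated by Cdc45 and the GINS complex, and polymerases, a sliding clamp and its loader follow at the fork. Most of these genes are transcribed shortly before S phase under E2F transcription factors, so that in immune cells their RNA is a common readout of cells that divide, such as lymphocytes after antigen contact.

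Promoters were examined for the letters that E2F factors are known to bind. Of the 36 members, 31 had a promoter sequence in the RefSeq table (GRCm38.p6, from 250 bases before to 50 bases after the start of transcription). One of the forms TTCCCGC or TTCGCGC or TTGCCGC or TTGGCGC, on either strand, stood in 20 of 31, or 64.5%. The share was 10.9% of all 27025 genes with promoters of that length and 18.4% of the 11138 of them measured here. A gene with several promoters counted once, as a match if any of them held the letters. The CCAAT box bound by NF-Y stood in 18 of 31 (58.1%, against 42.3% of measured genes), and the letters TTTGAA of the cell cycle homology region, known from genes of mitosis, in 4 of 31 (12.9%, against 14.5%). None of these motifs contains another, and a match in letters is a description of the window and not a site of binding. Of the 14 members that passed the test in at least 1 comparison described below, 12 had a promoter and 8 of these had an E2F match. A match thus stood in 8 of 12 called members with a promoter and in 20 of 31 of all members with one. The match nearest to the start is shown for these 8 genes, which were both called and had a match. Windows of 30 bases run 5′ to 3′ on the strand of the gene, with the match in capitals.
Cdt1, chr8:122568022-122568051, plus strand: gcgcggaatccGCGGGAActacctttttgg
Mcm3, chr1:20820275-20820304, minus strand: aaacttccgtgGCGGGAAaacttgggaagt
Mcm5, chr8:75109349-75109378, plus strand: caagaactttcGCGCCAAaacgtccagcct
Mcm6, chr1:128359663-128359692, minus strand: gccggaggcgcGCGCGAAgtggcagcgcgg
Pola1, chrX:93632122-93632151, minus strand: tttcaggctggTTGGCGCggaatagagaga
Pold1, chr7:44548766-44548795, minus strand: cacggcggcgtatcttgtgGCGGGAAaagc
Prim1, chr10:128015189-128015218, plus strand: ggcctgtcttgTTCCCGCcaattctcgtgt
Uhrf1, chr17:56303278-56303307, plus strand: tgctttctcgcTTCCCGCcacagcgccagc
In Pola1, Prim1 and Uhrf1 the match read on the strand of the gene, and in the other 5 genes on the opposite strand. The letters GCGGGAA, the reverse complement of TTCCCGC, were the match shown for Cdt1, which rose after T-DM1, for Mcm3, which fell, and for Pold1.

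The values are log2 expression that the authors had already normalized, by a transformation that is not given. A step of 1 unit is a 2-fold difference on this scale, though shrunken values would give smaller differences than counts. The values ran from 1.13 to 19.7 over all genes. Counts cannot be recovered from them and the depth behind each value is unknown. Sample medians lay between 8.73 and 8.87. Ptprc, which encodes CD45, was high in every library, with group medians of 14.5 in untreated, 14.7 in trastuzumab, 14.3 in T-DM1 and 15.0 in T-PNU samples. Transcripts of cells that should be removed by the beads were also measured, for example Krt8, a keratin of epithelial cells, with group medians from 12.7 to 13.5. The study's heatmaps leave out 4 samples (B1 and C1 of the untreated and E2 and B3 of the trastuzumab group) and mark T-PNU G1 and A2 as low-responding, without a stated definition of the mark. All 24 samples were used here, and the counts of called replication genes are also given without those 4 samples.

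Averaged over the 36 genes, 4 of the 6 T-PNU mice were below every untreated mouse. Each value was expressed as its deviation from the average of that gene over the 24 samples and averaged over the 36 genes. The T-PNU samples lay at -0.34 (C2), -0.29 (H1), -0.17 (B2), -0.08 (D2), -0.01 (A2) and 0.03 (G1), with a median of -0.13. Untreated samples ran from -0.05 to 0.22 with a median of 0.09, trastuzumab samples from -0.11 to 0.20 with a median of 0.07, and T-DM1 samples from -0.09 to 0.09 with a median of -0.02. T-PNU C2 and H1 and B2 were thus below every sample of the other groups, while G1 and A2 lay inside the untreated range.

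**Figure D1:**
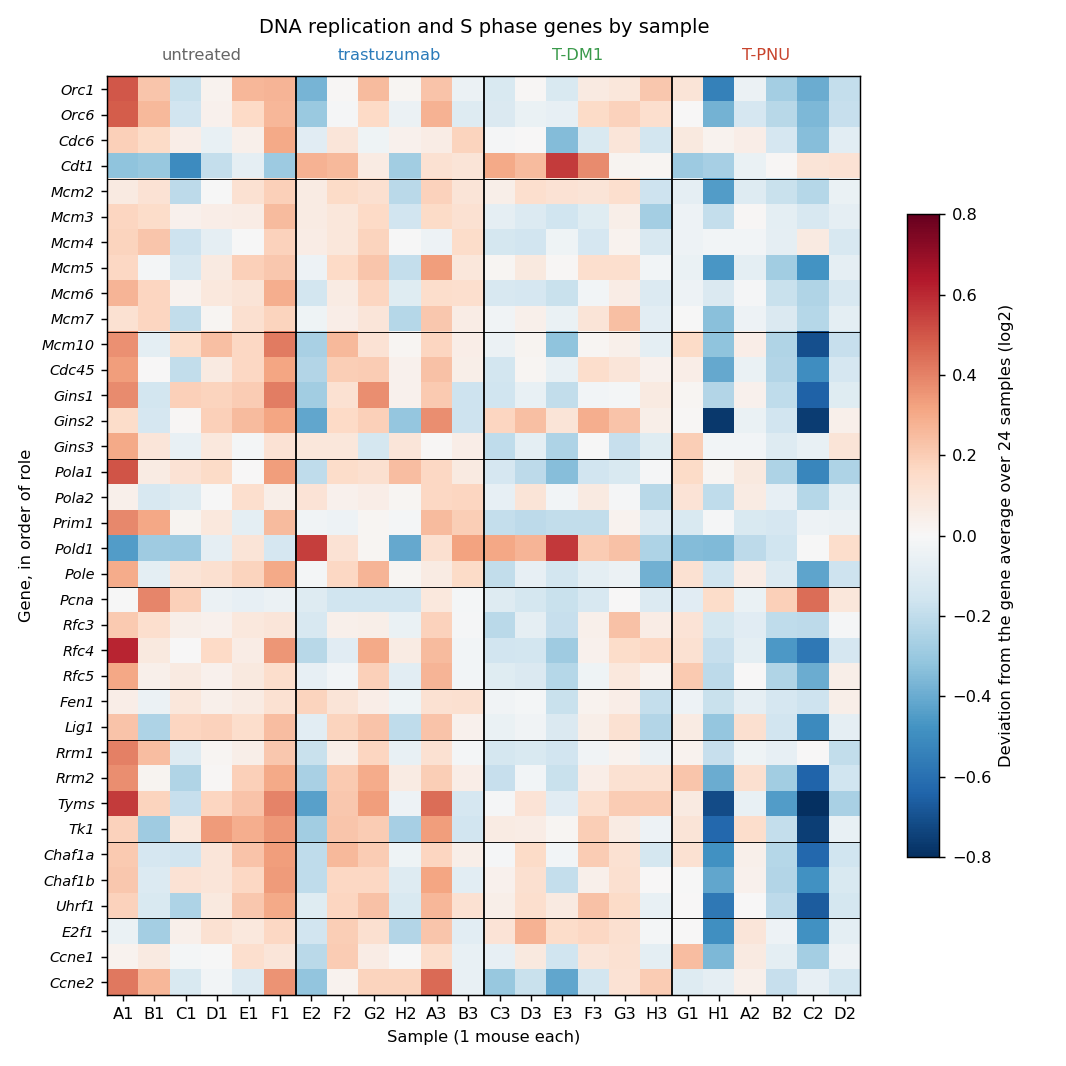
Deviation of each of the 36 genes (rows, in order of role) from its average over the 24 samples (columns, 1 mouse each, by group), in log2 units from blue (low) to red (high). T-PNU samples H1 and C2 are blue in most rows, untreated A1 and F1 are red in most rows, and Cdt1, Pold1 and Pcna run against the other rows in several samples.

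Counted by gene, the same samples stood out. In T-PNU samples B2, H1, C2 and D2 only 2, 3, 4 and 7 of the 36 genes were above their average, against 17 in A2 and 23 in G1. Untreated samples had 18 to 33 genes above average, trastuzumab samples 8 to 35 and T-DM1 samples 8 to 31. Of all genes, 47.3% to 51.2% were above average in T-PNU samples and 47.4% to 50.4% in untreated samples. The range was 47.7% to 50.9% in trastuzumab and 47.6% to 49.9% in T-DM1 samples. The lowest of the 24 values fell in a T-PNU sample for 25 of 36 genes, 17 of them in C2 and 7 in H1, and in no trastuzumab sample. The highest value fell in an untreated sample for 24 genes, 12 of them in F1 and 11 in A1. Where the lowest and highest values fell was not counted over all genes. No test was made of these summed levels.

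**Figure D2:**
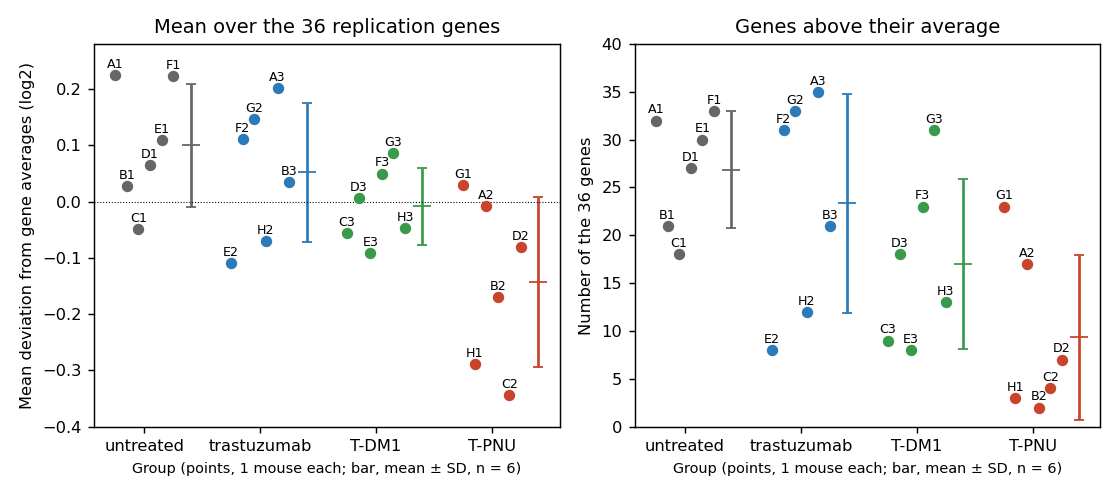
Left, mean deviation of the 36 genes from their averages (log2) and right, number of the 36 genes above average, for each mouse (points, labelled by sample) with mean ± SD of each group (bars, n = 6). T-PNU samples spread from -0.34 to 0.03 on the left and from 2 to 23 genes on the right, and the untreated samples from -0.05 to 0.22 and from 18 to 33 genes.

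Spread among mice differed between genes and groups. The SD over the 6 mice of a group had a median over the 36 genes of 0.171 in untreated, 0.170 in trastuzumab, 0.116 in T-DM1 and 0.197 in T-PNU samples, against 0.220, 0.182, 0.150 and 0.195 over all genes. In the T-PNU group Prim1, a primase subunit, was the steadiest with 0.0521, and Gins2 varied most with 0.381.

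To ask whether T-PNU changed these genes, group means were compared with limma over all 16996 genes, and a gene was called at a Benjamini-Hochberg adjusted p under 0.05. Between T-PNU and untreated samples none of the 36 genes was called, with adjusted p from 0.0573 (Mcm6) to 0.892 (Pold1). In that comparison 0.0530% of all genes were called lower and 0.135% higher. The log2 fold changes nevertheless leaned one way. They were below 0 in 33 of 36 genes, with a median of -0.25 against 0.008 over all genes, and 28 of 36 had an unadjusted p under 0.05, as did 4218 of the 16996 genes. The exceptions were Cdt1 (0.22), Pcna (0.05) and Pold1 (0.03).

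The count of calls in this comparison depended on the samples included. Without the 4 samples that the heatmaps leave out, 23 of 36 genes were called lower and 0 higher, where 15.7% of all genes were called lower, and the median moved to -0.29. With samples weighted by limma for their quality, 24 genes were called lower over all 24 samples, where 17.1% of all genes were. Leaving out untreated C1 gave 19 calls, where 9.68% of all genes were called lower. The count was 13 without T-PNU G1 (4.64% of all genes) and 2 without T-PNU A2 (0.918% of all genes), and 0 without any other untreated or T-PNU sample, where none of the 16996 genes was called lower. The gain in calls was thus seen over the whole table as well as in the 36 genes.

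By role, the 23 genes called lower without the 4 samples were Orc1 and Orc6 of origin licensing, all of the helicase ring but Mcm4, all of the helicase activators but Gins3, the polymerase subunits Pola1, Prim1 and Pole, the clamp loader subunit Rfc4, Lig1, all 4 genes of nucleotide supply and all 3 of chromatin. None of the 3 drivers of the step from G1 to S was among them. The log2 fold changes in that fit were -0.45 for Orc6 (adjusted p = 0.00517), -0.31 for Mcm6 (adjusted p = 0.00590) and -0.51 for Mcm10 (adjusted p = 0.00785). They were -0.51 for Rfc4 (adjusted p = 0.0118), -0.34 for Lig1 (adjusted p = 0.0263) and -0.41 for Chaf1b (adjusted p = 0.0101). The values below are for all 24 samples unless stated, and where a gene is said not to be called against untreated samples, that holds for the fit of 24.

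**Figure D3:**
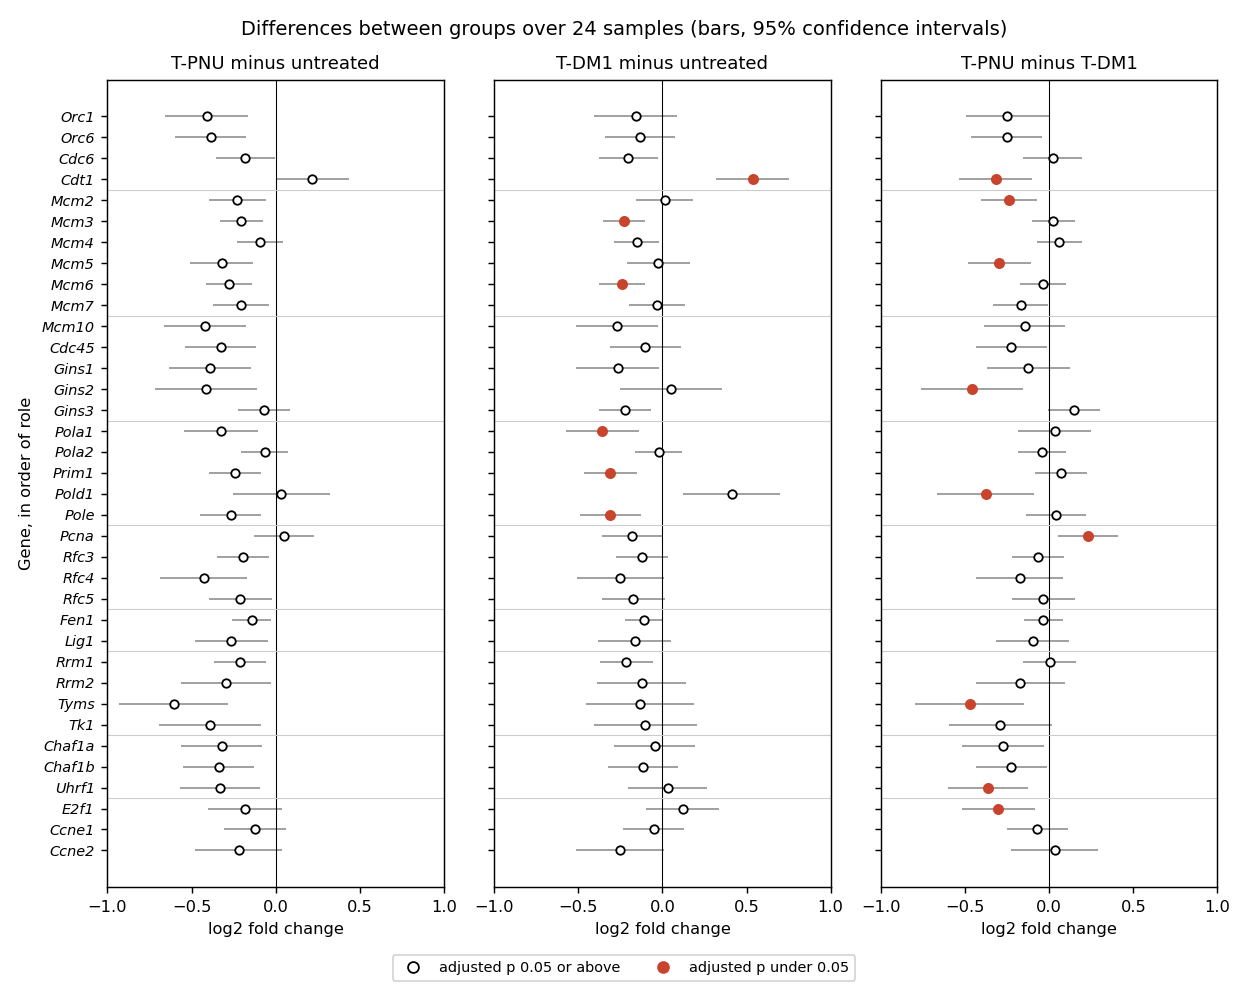
Log2 fold change of each gene (points, with 95% confidence intervals as bars) between T-PNU and untreated (left), T-DM1 and untreated (middle) and T-PNU and T-DM1 samples (right), in order of role, with filled points at an adjusted p under 0.05. Most points lie below 0 on the left with none filled, 5 filled points lie below and 1 above 0 in the middle, and 8 below and 1 above 0 on the right.

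Between T-DM1 and untreated samples, 6 genes passed the test. Prim1, Pole, Pola1, Mcm6 and Mcm3 fell and Cdt1 rose, 5 and 1 of 36, where 2.15% of all genes were called lower and 4.11% higher. The log2 fold changes were below 0 in 30 of 36 genes, with a median of -0.13 against -0.02 over all genes. The 5 lower calls became 2 (Mcm6 and Pole) without the 4 samples named above, where 1.10% of all genes were called lower, and 0 without either untreated A1 or T-DM1 D3. They became 1 without untreated F1, T-DM1 E3 or T-DM1 F3, 2 without T-DM1 C3 and 3 without untreated D1. In these 7 fits 0.800% to 1.77% of all genes were called lower. Cdt1 remained higher in each of these fits.

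Compared directly, at doses that differ (1 and 15 mg/kg), T-PNU was below T-DM1 for 8 genes (Gins2, Tyms, Pold1, Uhrf1, Cdt1, E2f1, Mcm5 and Mcm2) and above it for 1 (Pcna). In this comparison 17.4% of all genes were called lower and 12.4% higher, so that the 8 of 36 called lower (with a median over the 36 genes of -0.14, against 0.03 over all genes) are close to the share of the whole table. The count was 11 without the 4 samples, with Orc6, Cdc45 and Chaf1a added, where 20.1% of all genes were called lower. It was 0 without T-PNU H1, 2 without T-PNU C2 or T-DM1 F3, 4 without T-DM1 E3 or G3 and 5 without T-DM1 D3, where 11.8% to 15.8% of all genes were called lower. Both treated groups were set against the same 6 untreated samples above, whereas the difference of means here does not use them. The untreated and trastuzumab samples still entered the shared estimate of spread, on which the calls depend.

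Trastuzumab alone gave no call in either direction, with a median log2 fold change of -0.06 and a lowest adjusted p of 0.143 (Cdt1, 0.37). In this comparison 0.0118% of all genes were called lower and 0.247% higher. Against trastuzumab, T-PNU samples were lower in 35 of 36 genes with a median of -0.21. None of the 36 was called (lowest adjusted p 0.133), where 0% of all genes were called lower and 0.00588% higher. Without the 4 samples 13 genes were called lower there, where 13.5% of all genes were. T-DM1 samples differed from trastuzumab samples by a median of -0.08 with none called, where 0.435% of all genes were called lower and 0.212% higher.

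Among the genes that license origins, Cdt1, which loads the helicase and is degraded once S phase begins, went against the rest. Its gene lies at chr8:122568015-122573554 on the plus strand of GRCm38. Untreated samples had a lowest value of 10.41, a median of 10.62 and a highest of 10.84, and T-DM1 samples had 10.93, 11.19 and 11.47. Every T-DM1 sample was thus above every untreated one, which 2.05% of all genes did, and the log2 fold change was 0.54 ± 0.11 (SE, adjusted p = 0.00694). T-PNU samples, at 10.62, 10.89 and 11.03, lay between, with a difference from untreated of 0.22 ± 0.11 (adjusted p = 0.201) and from T-DM1 of -0.32 ± 0.11 (adjusted p = 0.0271). Trastuzumab samples had 10.64, 11.03 and 11.19, and 5 of them were above every untreated sample. They differed from untreated samples by 0.37 ± 0.11 (adjusted p = 0.143). T-DM1 differed from trastuzumab by 0.16 ± 0.11 with no call (adjusted p = 0.478). A second annotated protein-coding gene overlaps Cdt1 on the same strand, and how the counting split reads between them is not known here.

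Orc6 is a subunit of the origin recognition complex. Its values in untreated samples were 10.08, 10.44 and 10.71 (lowest, median and highest), and in T-PNU samples 9.85, 10.03 and 10.24. All 6 T-PNU samples were below the untreated median and 4 were below every untreated sample, with a log2 fold change of -0.39 ± 0.10 (adjusted p = 0.0651, two-sided exact permutation p = 0.00649 for this gene alone). Orc1 differed by -0.41 and Cdc6, the loading ATPase, by -0.18 (adjusted p = 0.0732 and 0.188).

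All 6 subunits of the helicase ring had lower means after T-PNU than in the untreated group, with log2 fold changes from -0.32 to -0.09, and none was called. Mcm6 (chr1:128331590-128359664, minus strand) had 12.09, 12.20 and 12.35 in untreated and 11.82, 11.94 and 12.05 in T-PNU samples. The groups did not overlap for Mcm6 or for Mcm3, the only 2 of the 36 genes for which that held, where 0.671% of all genes were lower without overlap. For Mcm6 the log2 fold change was -0.28 ± 0.07 (adjusted p = 0.0573), and the exact permutation p of 0.00216 is the smallest that the splits of 6 against 6 allow.

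T-DM1 samples were nearly level with T-PNU samples for these subunits, with 11.89, 11.94 and 12.12 for Mcm6. Against untreated samples Mcm6 fell by 0.24 (SE 0.07, adjusted p = 0.0320) and Mcm3 fell by 0.23 (SE 0.06, adjusted p = 0.0308). The difference between T-PNU and T-DM1 was -0.04 for Mcm6 (95% interval -0.17 to 0.10) and 0.02 for Mcm3 (-0.10 to 0.15).

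Mcm5 and Mcm2 were called lower in T-PNU than in T-DM1 samples instead. Mcm5 (chr8:75109569-75128439, plus strand) had 12.10, 12.17 and 12.25 in T-DM1 samples, much as in untreated ones (11.99, 12.24 and 12.33), and 11.64, 11.94 and 12.06 in T-PNU samples. Every T-PNU sample was below every T-DM1 sample, as held for 2 of 36 members and 7.73% of all genes. For Mcm5 the log2 fold change was -0.30 ± 0.09 (adjusted p = 0.0186). Mcm2 differed by -0.24 (adjusted p = 0.0307), but the groups overlapped, with 3 T-PNU samples below every T-DM1 sample. The T-DM1 sample H3 was low at 11.34 where the other 5 lay between 11.55 and 11.64. The rest of the ring, Mcm4 and Mcm7, differed by 0.06 and -0.17 with no call.

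**Figure D4:**
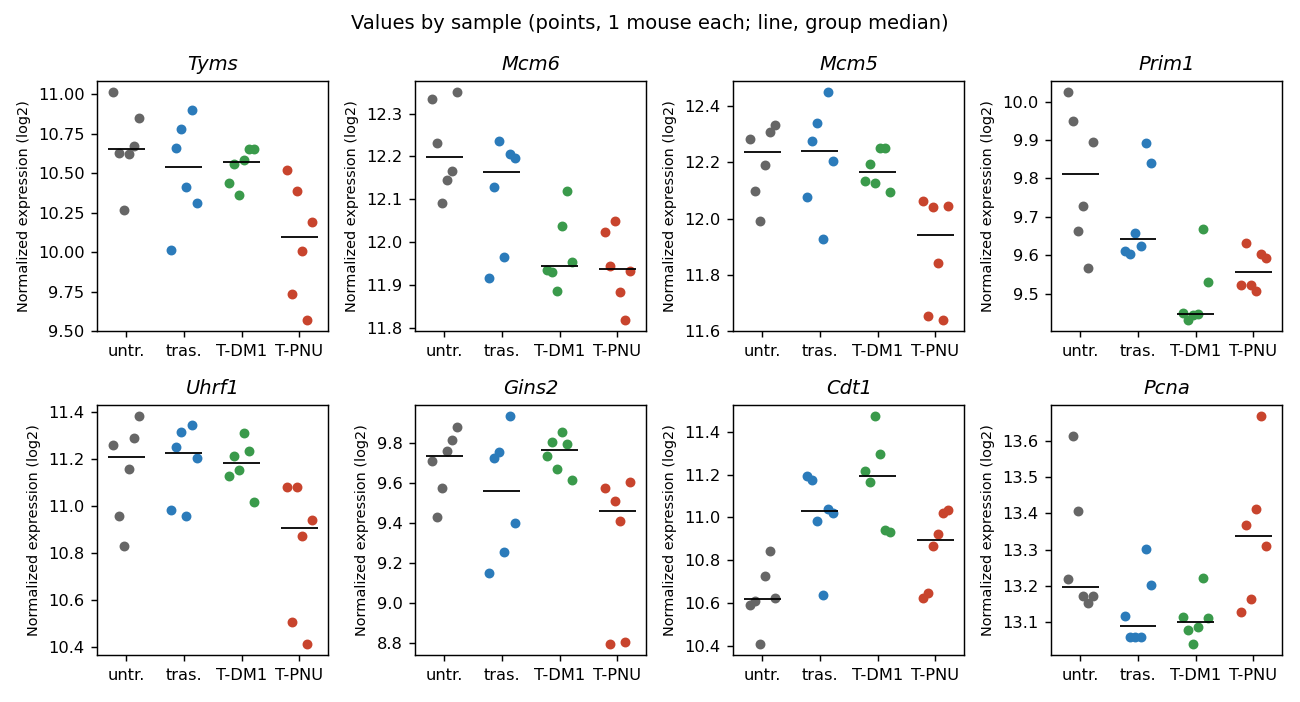
Normalized expression (log2) of 8 genes in each mouse (points) with the group median (line), for untreated (untr.), trastuzumab (tras.), T-DM1 and T-PNU samples. Tyms, Mcm5, Uhrf1 and Gins2 have 2 or more T-PNU samples below the rest, Mcm6 and Prim1 are low in both T-DM1 and T-PNU samples, and Cdt1 is highest in T-DM1 samples.

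Factors that activate the helicase held some of the largest differences. Gins2, a subunit of the GINS complex (chr8:120578633-120589304, minus strand), had 8.80, 9.46 and 9.61 in T-PNU and 9.61, 9.77 and 9.86 in T-DM1 samples, without overlap. Its log2 fold change between them was -0.46 ± 0.15 (adjusted p = 0.0227), and between T-PNU and untreated samples (9.43, 9.74 and 9.88) it was -0.41 ± 0.15 (adjusted p = 0.103). T-PNU H1 and C2 were the 2 lowest samples, both near 8.80, while the other 4 lay from 9.41 up. Mcm10, which helps to start the helicase, had 9.23, 9.72 and 10.09 in T-PNU against 9.85, 10.14 and 10.35 in untreated samples (log2 fold change -0.42 ± 0.12, adjusted p = 0.0696). Cdc45 and Gins1 differed by -0.33 and -0.39 and Gins3 by -0.07, and none of them was called against untreated or T-DM1 samples.

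Of the 5 genes that fell after T-DM1, 3 encode subunits of polymerases. Prim1, the catalytic subunit of primase (chr10:128015168-128030037, plus strand), had 9.57, 9.81 and 10.02 in untreated and 9.43, 9.45 and 9.67 in T-DM1 samples. In all, 5 samples of the T-DM1 group were below every untreated sample, and Prim1 fell by 0.31 (SE 0.08, adjusted p = 0.0185). T-PNU samples, with 9.51, 9.56 and 9.63, did not differ detectably from T-DM1 samples (0.07, 95% interval -0.09 to 0.23).

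The others were Pola1, the catalytic subunit of polymerase alpha, and Pole, that of the leading strand polymerase epsilon. Pola1 had 10.28, 10.41 and 10.78 in untreated and 9.94, 10.13 and 10.27 in T-DM1 samples, without overlap (1.28% of all genes were lower without overlap), and fell by 0.36 (SE 0.11, adjusted p = 0.0443). Pole had 9.53, 9.76 and 9.91 in untreated and 9.22, 9.49 and 9.55 in T-DM1 samples, and fell by 0.31 (SE 0.09, adjusted p = 0.0367). T-PNU differed from T-DM1 by 0.03 (-0.19 to 0.25) for Pola1 and 0.04 (-0.14 to 0.22) for Pole.

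Pold1, the catalytic subunit of polymerase delta, went the other way. Untreated samples had 8.98, 9.22 and 9.53, T-DM1 samples 9.18, 9.68 and 9.99, and T-PNU samples 9.07, 9.24 and 9.56. T-DM1 was above untreated by 0.41 ± 0.14 (adjusted p = 0.0748), and T-PNU was lower than T-DM1, with a log2 fold change of -0.38 ± 0.14 (adjusted p = 0.0438). Trastuzumab samples had 9.02, 9.55 and 9.98, with a difference from untreated of 0.31 ± 0.14 (adjusted p = 0.530). T-DM1 differed from trastuzumab by 0.10 ± 0.14 (adjusted p = 0.791). Between T-PNU and untreated samples Pold1 differed by 0.03, a value whose sign turned in other fits (-0.02 without the 4 samples). Pola2, the accessory subunit of polymerase alpha, differed by -0.06 or less in size in all 3 comparisons among untreated, T-DM1 and T-PNU samples.

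Base composition moved with some of these values. The longest transcripts of Pold1, E2f1 and Cdt1 have 61.0%, 58.3% and 57.8% GC, the only 3 members above 55%, where the median is 49.2% for members and 49.6% for all genes. They also had the 3 highest log2 fold changes of all members between T-DM1 and untreated samples (0.41, 0.12 and 0.54). When the trend of values with GC content was removed in each sample, Cdt1 was still higher after T-DM1 (0.32, adjusted p = 0.0252), and of the 5 lower genes Mcm3 alone was still called. In that fit 0.662% of all genes were called higher and 1.02% lower. Between T-PNU and T-DM1 the calls changed from 8 lower and 1 higher to 6 lower and 0 higher, where 17.4% of all genes were called lower, with Cdt1, Pold1, E2f1 and Pcna lost and Orc6, Mcm2, Mcm5, Gins2, Tyms and Uhrf1 called. The part of GC content in these differences was not tested further.

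Pcna, the sliding clamp that holds polymerases on DNA and also serves in DNA repair, was the only member called higher in T-PNU than in T-DM1 samples. Its values were 13.13, 13.34 and 13.67 in T-PNU, 13.04, 13.10 and 13.22 in T-DM1 and 13.15, 13.20 and 13.61 in untreated samples. The log2 fold change from T-DM1 was 0.23 ± 0.09 (adjusted p = 0.0456), and the call was lost under quantile normalization (adjusted p = 0.0723), with the GC trend removed (adjusted p = 0.152), in a fit of the 12 samples alone (adjusted p = 0.0505) and on leaving out any 1 of 9 of these samples (all but T-DM1 G3 and T-PNU G1 and A2). T-PNU C2, the lowest sample for 17 other members, was the highest of all 24 for Pcna. Annotated pseudogenes of Pcna (Pcna-ps1 and Pcna-ps2) and of Tyms (Tyms-ps) could have taken or given reads.

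Rfc4, a subunit of the loader that places this clamp, had 8.51, 8.92 and 9.20 in T-PNU against 9.08, 9.20 and 9.69 in untreated samples. Of the T-PNU samples, 5 were below every untreated one and G1 was not, with a log2 fold change of -0.43 ± 0.12 (adjusted p = 0.0732). Rfc3 and Rfc5 differed by -0.19 and -0.21. On the lagging strand, Fen1, which trims flaps, differed by -0.14 and Lig1, which seals nicks, by -0.26, again without a call (adjusted p = 0.127 and 0.136). Fen1 had 10.74, 10.81 and 10.96 in T-PNU and 10.87, 10.97 and 11.04 in untreated samples. Lig1 had 10.69, 11.09 and 11.33 in T-PNU against 10.96, 11.38 and 11.45 in untreated samples, of which B1 was the lowest and the other 5 lay between 11.35 and 11.45.

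The largest difference of all 36 genes from untreated samples was in nucleotide supply. Tyms, thymidylate synthase (chr5:30058202-30073617, minus strand), had 9.57, 10.10 and 10.52 in T-PNU samples, 10.27, 10.65 and 11.01 in untreated, 10.02, 10.54 and 10.90 in trastuzumab and 10.36, 10.57 and 10.65 in T-DM1 samples. All 6 T-PNU samples were below the untreated median and 4 were below every untreated sample. From untreated samples the log2 fold change was -0.61 ± 0.16 (adjusted p = 0.0638, exact permutation p = 0.0108), and -0.72 without the 4 samples (adjusted p = 0.00448). From T-DM1 samples it was -0.47 ± 0.16 (adjusted p = 0.0274).

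The other genes of this group were less clear-cut. Rrm2, the small subunit of ribonucleotide reductase, had 10.67, 11.09 and 11.53 in T-PNU and 11.07, 11.42 and 11.68 in untreated samples, with G1 and A2 above the untreated median, and a log2 fold change of -0.30 ± 0.13 (adjusted p = 0.163). Rrm1, its large subunit, differed by -0.21 and Tk1, thymidine kinase, by -0.39. Of the 4, Tyms was the only one called between T-PNU and T-DM1.

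The 3 genes that package and mark new DNA had log2 fold changes from -0.34 to -0.32 between T-PNU and untreated samples. Chaf1b, a subunit of the CAF-1 histone chaperone, had 9.19, 9.49 and 9.70 in T-PNU against 9.56, 9.80 and 10.01 in untreated samples (adjusted p = 0.0752). Uhrf1, which guides maintenance of DNA methylation (chr17:56303321-56323486, plus strand), had 10.41, 10.91 and 11.08 in T-PNU, 11.02, 11.18 and 11.31 in T-DM1 and 10.83, 11.21 and 11.38 in untreated samples. Its log2 fold change was -0.36 ± 0.11 from T-DM1 (adjusted p = 0.0225) and -0.33 ± 0.11 from untreated samples (adjusted p = 0.0988).

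None of the 3 drivers of the step from G1 to S was called against untreated samples. E2f1, the transcription factor, had 9.71, 10.14 and 10.29 in T-PNU, 10.18, 10.34 and 10.48 in T-DM1 and 9.93, 10.26 and 10.36 in untreated samples. T-PNU was lower than T-DM1, with a log2 fold change of -0.30 ± 0.11 (adjusted p = 0.0349), and differed from untreated samples by -0.18 ± 0.11 (adjusted p = 0.275). Ccne2, a cyclin that activates Cdk2, had 8.06, 8.16 and 8.28 in T-PNU against 8.12, 8.37 and 8.67 in untreated samples (log2 fold change -0.22 ± 0.13, adjusted p = 0.266). Ccne1 differed by -0.12.

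A list of 46 further genes of replication was read beside the members. None was called between T-PNU and untreated samples, where 39 were below 0 with a median of -0.17, and the lowest adjusted p was that of the helicase paralog Mcm8 (-0.45, adjusted p = 0.0519). Without the 4 samples 16 were called lower and 3 higher, where 15.7% and 15.3% of all genes were. Between T-PNU and T-DM1, 7 were called lower and 2 higher, against 17.4% and 12.4% of all genes, so that neither count is above the share of the whole table. Pold2, the accessory subunit of polymerase delta, differed by -0.57 (adjusted p = 0.00237), and Dut, which keeps uracil out of DNA, by -0.65 (adjusted p = 0.00479).

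Of 28 genes of mitosis, which act after S phase, none was called between T-PNU and untreated samples, yet all 28 were below 0, with a median of -0.53. Mki67, which encodes the proliferation marker Ki-67, had 12.23, 12.74 and 13.11 in T-PNU, 12.46, 12.68 and 12.83 in T-DM1 and 12.79, 13.29 and 13.57 in untreated samples. It fell by 0.59 after T-DM1 (adjusted p = 0.0147) and differed by -0.50 after T-PNU (adjusted p = 0.0664). Top2a, a topoisomerase of dividing cells, differed by -0.52 after T-PNU and -0.41 after T-DM1 (adjusted p = 0.0696 and 0.0909). Without the 4 samples all 28 were called lower in T-PNU than in untreated samples, where 15.7% of all genes were. Ndc80 of the kinetochore had the lowest adjusted p over 24 samples (-0.56, adjusted p = 0.0519), and Mybl2, a regulator of mitotic genes, the lowest against T-DM1 (-0.42, adjusted p = 0.0193).

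Of 29 upstream regulators of the step from G1 to S, none was called between T-PNU and untreated samples over 24 samples. Without the 4 samples 11 were called lower and 4 higher, where 15.7% and 15.3% of all genes were. In T-PNU against T-DM1 samples 7 were called lower and 4 higher, beside the same 17.4% and 12.4% of all genes. Myc, a driver of growth, differed there by -0.89 (adjusted p = 0.00134), and Cdk4, the kinase of early G1, had the lowest adjusted p against untreated samples (-0.48, adjusted p = 0.0665). Cdkn1a, the p21 inhibitor of cyclin-dependent kinases, had group medians from 14.1 to 14.4 and differed from untreated samples by 0.32 in T-PNU (adjusted p = 0.104) and 0.31 in T-DM1 samples (adjusted p = 0.104). Ccnd1, cyclin D1, differed by -0.10 and 0.14 with no call. Of 10 genes of the S phase checkpoint, none was called between T-PNU and untreated samples (lowest adjusted p 0.0725, Hus1, -0.24). Without the 4 samples 3 were called lower and 1 higher, beside the same 15.7% and 15.3% of all genes. Topbp1, which activates the kinase Atr, was higher in T-PNU than in T-DM1 samples by 0.16 (adjusted p = 0.0396).

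Markers of cell types differed between the same samples. Ptprc was higher in T-PNU than in T-DM1 samples by 0.76 ± 0.19 (adjusted p = 0.00569), and all 6 T-PNU samples deviated upward from its average, by 0.06 to 0.84. In the order of the members' mean deviation, from the lowest, T-PNU C2, H1 and B2, trastuzumab E2 and T-DM1 E3 had Ptprc deviations of 0.84, 0.68, 0.45, 0.40 and -0.16. The mean deviation of the 8 T cell markers found of 9 ran from -0.32 to 1.80 in T-PNU samples, with H1, B2, C2 and D2 at 0.87 or above and G1 and A2 below 0, and from -1.49 to 1.46 in untreated samples. That of 5 B cell markers ran from -1.98 to 2.24 in T-PNU and from -2.38 to 1.93 in untreated samples. No T or B cell marker was called between T-PNU and untreated samples over 24 samples, and all 8 T cell markers and no B cell marker were called higher without the 4 samples, where 15.3% of all genes were called higher. Of the 4 samples, untreated B1 and C1 deviated by 1.46 and 0.44 and trastuzumab E2 and B3 by 1.18 and 0.71. Between T-PNU and T-DM1 samples, 3 of 4 markers of NK cells, 4 of 8 of macrophages and monocytes, 2 of 6 of neutrophils and 2 of 7 of dendritic cells were called higher and none lower, where 12.4% of all genes were called higher.

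**Figure D5:**
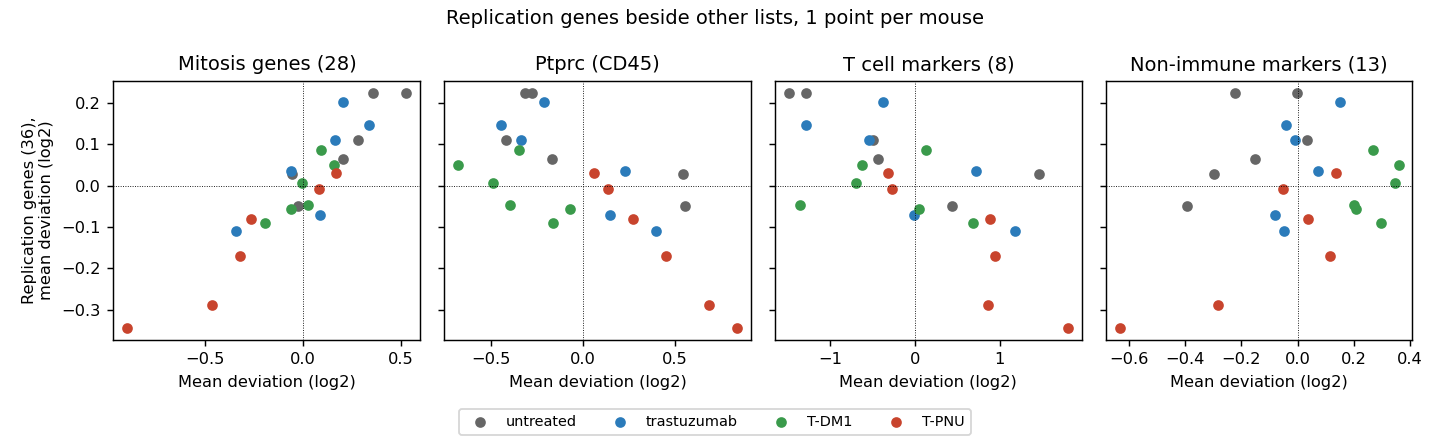
Mean deviation of the 36 replication genes (vertical axis, log2) against that of 28 mitosis genes, Ptprc, 8 T cell markers and 13 non-immune markers (horizontal axes, log2), 1 point per mouse, colored by group. The 3 lowest T-PNU samples lie at the low end of the mitosis genes and at 0.45 or above for Ptprc, and the T-DM1 samples lie together at 0.20 to 0.36 for the non-immune markers.

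Markers of tumor and stromal cells stood apart in the T-DM1 samples. Over 13 such genes the mean deviation was 0.20 to 0.36 in T-DM1 samples, -0.39 to 0.03 in untreated, -0.08 to 0.15 in trastuzumab and -0.63 to 0.14 in T-PNU samples, with T-PNU C2 and H1 lowest in their group at -0.63 and -0.28. Of these 13, 3 rose and none fell between untreated and T-DM1 samples, and 6 were called lower and 3 higher in T-PNU than in T-DM1 samples, beside 4.11% of all genes called higher in the first comparison and 17.4% lower and 12.4% higher in the second. Between T-PNU and T-DM1 samples Krt8 differed by -0.96 (adjusted p = 0.00434) and Col1a1, a collagen of fibroblasts, by -1.62 (adjusted p = 0.00139). Both belong to the 6 called lower and were named after their values were seen, and the 3 called higher went the other way. Epcam, which defines epithelial cells, had group medians from 7.11 to 7.97, and Cd3e, which defines T cells, from 8.56 to 9.75. In bulk RNA, fewer cells of a type and less RNA per cell cannot be told apart, and the part of cell composition in the values of the replication genes was not tested.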

How the data were processed

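RNA-seq was done on CD45+ cells of 24 tumors with 1 library per mouse, so replicates were separate animals. The authors aligned 81-base reads with STAR 2.4.2a to the mouse genome (mm10 per the labels), counted reads per gene by strand with featureCounts (Subread 1.5.0), removed genes averaging under 5 counts, assigned symbols with org.Mm.eg.db 3.4.0 and compared groups with DESeq2. The deposited values are log2 expression normalized by the authors; the transformation is not given in the sources used here, and shrunken values would give smaller fold changes than counts.

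Linear models were fitted with limma 3.58.1 (R 4.3.3; lmFit, contrasts.fit, eBayes with trend), 4 groups in one fit, 20 residual degrees of freedom, with Benjamini-Hochberg adjustment over 16996 genes in each of 6 comparisons. An exact permutation test, two-sided, was added for single genes. The stricter cut-offs of the methods (0.01 for the adjusted p, 2 for the fold change) were an alternative. No sample is named in the methods as removed, so all 24 entered. Scripts were tested on simulated data. Genes given with sample values were, in each role group, those with the lowest p between T-PNU and untreated and between T-PNU and T-DM1, plus E2f1, Pcna, Mcm5 and Rrm2. Mcm2, Mcm3, Pola1 and Pole were added after their values were seen. Of each other list, the genes with the lowest p in those comparisons were named, plus Mki67, Top2a, Cdkn1a and Ccnd1, and Pold2, Krt8 and Col1a1 were likewise added. The members and lists were chosen with earlier results of these data known. Positions are from GENCODE M21 (GRCm38). Python 3.11.15 with matplotlib 3.10.9 made the figures.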

Additional observations from a re-analysis of the deposited data

Results flagged for a closer look

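In 6 of 168 groups of 6 samples examined, 144 of single genes and 24 of list levels, 1 sample stood apart from the others by Dixon's criterion at 95%, where chance flags about 1 in 20. Mcm2 was low in trastuzumab H2 at 11.29 (the others from 11.58 to 11.69) and in T-DM1 H3 at 11.34 (11.55 to 11.64). Mcm3 was low in trastuzumab H2 too, at 11.76 (11.97 to 12.07). Mcm10 was low in T-DM1 E3 at 9.61 (9.85 to 9.97), Gins3 in trastuzumab G2 at 7.59 (7.74 to 7.83), and Lig1, the DNA ligase of replication, in untreated B1 at 10.96 (11.35 to 11.45). None of these samples was in the T-PNU group. Their cause was not tested.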

How the results depend on the processing

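The median log2 fold change of the 36 genes kept its sign in all 6 comparisons under every alternative run. Counts of called genes moved more, and the cause was not tested. For T-PNU against untreated samples, 0 genes were called lower over 24 samples. The count was 23 without the 4 samples that the study's heatmaps leave out (15.7% of all genes) and 24 with sample weights (17.1%). It was 1 when only genes above the median level were tested (0.671% of those) and 0 to 19 leaving out 1 sample (0% to 9.68%). Calls higher stayed at 0. For T-DM1 against untreated samples, the 5 lower calls became 2 without the 4 samples (1.10% of all genes) and 3 with quantile normalization (2.48%). They became 12 with sample weights (8.43%) and 1 with the GC trend removed (1.02%, an alternative chosen after seeing the data). The count was 1 when only the 2 groups were fitted, a fit for which the share of all genes was not counted. It was 0 to 5 leaving out 1 sample (0.800% to 3.68%). The 1 higher call became 2 with sample weights and 1 to 2 leaving out 1 sample. For T-PNU against T-DM1, the 8 lower calls became 13 with sample weights (22.7% of all genes) and 0 to 10 leaving out 1 sample, and the 1 higher call became 0 with quantile normalization, the GC trend removed or only the 2 groups, and 0 to 1 leaving out 1 sample. Against trastuzumab, sample weights gave 9 lower and 1 higher for T-PNU (7.65% and 5.62% of all genes) and 3 lower for T-DM1 (3.77%), the 20 samples gave 13 lower for T-PNU, and leaving out 1 sample gave 0. Trastuzumab against untreated samples gave 0 lower and, leaving out 1 sample, 0 to 1 higher (1 without trastuzumab H2, where 0.547% of all genes were). With an adjusted p under 0.01 and more than a 2-fold change required, every count was 0. Medians leaving out 1 sample ran from -0.28 to -0.22 for T-PNU and from -0.17 to -0.10 for T-DM1 against untreated samples, from -0.09 to -0.03 for trastuzumab, from -0.18 to -0.05 for T-PNU against T-DM1, from -0.24 to -0.15 for T-PNU and from -0.12 to -0.04 for T-DM1 against trastuzumab. Between T-PNU and untreated samples 18 of the 36 members were followed singly through these fits, and 2 of them changed sign. The other members were not followed in this way. Pold1 became -0.0161 without the 4 samples and -0.0369 with the GC trend removed, and ran from -0.0257 to 0.0911 leaving out 1 sample (below 0 without untreated A1 or T-PNU D2). Pcna ran from -0.0133 to 0.116 (below 0 without T-PNU C2). No paired analysis was possible because the labels carry no number that links mice across groups. Depth is unknown, so no limit on detection can be given.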
